A study of Mus musculus with 8 samples.

Results

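Chaperones bind unfolded polypeptides and help them reach their folded state, and each compartment of the cell has its own set. Cytosolic HSP70 proteins act with J proteins, which deliver clients and stimulate the ATPase, with nucleotide exchange factors and with HSP90, while the ring-shaped chaperonin TRiC folds actin and tubulin. Mitochondria hold the chaperonin HSP60 with its lid HSP10. The endoplasmic reticulum (ER) folds secreted and membrane proteins with BiP, GRP94 and the disulfide isomerases, and its load is sensed by the unfolded protein response, which acts through transcription factors such as Xbp1, Atf6 and Ddit3. In the intestine, secretory cells carry a large ER load, and loss of Xbp1 is known to harm Paneth cells.

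The genes described here were the measured HSP70, HSP90, HSP110 and small heat shock genes, the J proteins of classes A, B and C, the Pdia disulfide isomerases, the TRiC subunits, and Xbp1, Atf6, Ddit3, Hyou1, Sel1l and the Creb3l family, chosen by symbol from the probe sets that name a single gene. There were 99 such genes among the 18193 measured genes of the array. They were placed by known location: 57 in the cytosol and nucleus, 21 in the ER, 7 in mitochondria, 8 as transcription factors of the ER stress response, and 6 in no set (Dnajc4, Dnajc22, Dnajc28, Sel1l2, Sel1l3 and Cct8l1). Each gene was read from its brightest probe set over the 6 EphB2 arrays, and 72 of the 99 lay above the median level of all genes (7.92 on the log2 scale), 27 below it. Hsp90ab1 and Dnajc19 had no probe set naming them alone and were not analysed here.

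The arrays came from C57BL/6 mouse intestinal crypt cells, separated by flow sorting in different ways. For 1 sort, an antibody to EphB2, a receptor that is most plentiful on cells near the bottom of the crypt, gave EphB2 High, Medium and Low cells, with 2 arrays in each group. For the other, Lgr5-EGFP knock-in mice, in which the green protein is made from the stem cell gene Lgr5, gave Lgr5 High and Lgr5 Low cells, with 1 array in each. Cells were freed with EDTA, Dispase and DNase, and their RNA was amplified isothermally before hybridization; the labels give no age, no drug treatment, and no word on whether replicates came from different mice. Replicate 1 and replicate 2 of the EphB2 groups were hybridized on separate occasions, and both Lgr5 arrays on another, so sort and hybridization cannot be told apart between the 2 sorts. Median signals of the 8 arrays lay between 6.12 and 6.20. Of 7 stem cell genes measured, 7 were higher in EphB2 High than in Low (Lgr5 by 4.25 ± 0.25), and of 7 enterocyte genes 7 were lower (median -3.59). Lgr5 itself differed by 4.39 between the Lgr5 High and Low arrays. Other lineages moved as well: 7 of 9 Paneth cell genes were higher in EphB2 High (median 0.99). Goblet cell genes went both ways, with 4 of 10 higher and 4 lower (median -0.02). Among 6 tuft cell genes 4 were higher and 1 lower, and 4 of 8 enteroendocrine genes were lower. Of 8 lymphocyte and plasma cell genes 1 was higher and 1 lower, with median levels per array between 4.77 and 5.30. All values below are log2 signals or log2 differences, errors are limma standard errors (SE), and a gene is called where limma's Benjamini-Hochberg adjusted p over all genes was below 0.05. The p-values measure the spread between these arrays, which may be technical. In sorted pools, fewer cells of a type and less RNA per cell cannot be told apart.

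Between EphB2 High and Low, more cytosolic and mitochondrial genes were called higher in High than lower, and most ER stress transcription factors were lower. More ER genes were called lower than higher, but not in the fits without either High array or without Low replicate 2. The mitochondrial calls were lost in these same fits. Of the 99 genes 45 were called (45.5%, where 37.3% of all genes tested were called). Of these, 31 were higher in High (22% of all genes were called higher) and 14 lower (15.3% were called lower), and 13 were called and differed at least 2-fold (18.5% of all genes did). The shares of all genes were not matched to the 99 genes by level. With only genes above the median level tested, 49 of 72 were called. In the same fit 5744 of all 9096 genes tested were called, with a median difference of 0.10. Of the cytosolic and nuclear genes 22 were called higher, 4 lower and 31 neither, with a median difference of 0.31. Of the ER genes 3 were higher, 5 lower and 13 neither, with a median of -0.24. Of the mitochondrial genes 4 were higher and none lower in limma's test (0 lower also at an unadjusted p below 0.05), with a median of 0.43. Of the 8 ER stress regulators 2 were higher and 5 lower, with a median of -0.67. The median over all genes was 0.01, and no gene without an assigned place was called (2 of 6 had an unadjusted p below 0.05, and Sel1l3 was called lower with the hybridization as a block, adjusted p = 0.0159).

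These medians had the same signs in both hybridizations. For the cytosol the median was 0.27 in the first and 0.38 in the second, for mitochondria 0.38 and 0.41, for the ER -0.17 and -0.22, and for the stress regulators -0.59 and -0.74. Each of the 45 called genes kept its sign in both, as did 90 of the 99. The same arrays gave the medians and the calls, so the split by hybridization is no separate check. How many of all genes kept their sign was not counted. In 77 of the 99 genes the High and Low arrays did not overlap, which was also so for 68% of all genes. The calls were fewer without single arrays: 21 without High replicate 1, 23 without High replicate 2 and 27 without Low replicate 2. Fewer of all genes were called in these fits as well, and the share called was no higher among the 99 genes than among all genes. Leaving out any of the other 3 arrays changed the count less. Each such fit leaves 1 array in a group.

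**Figure D1:**
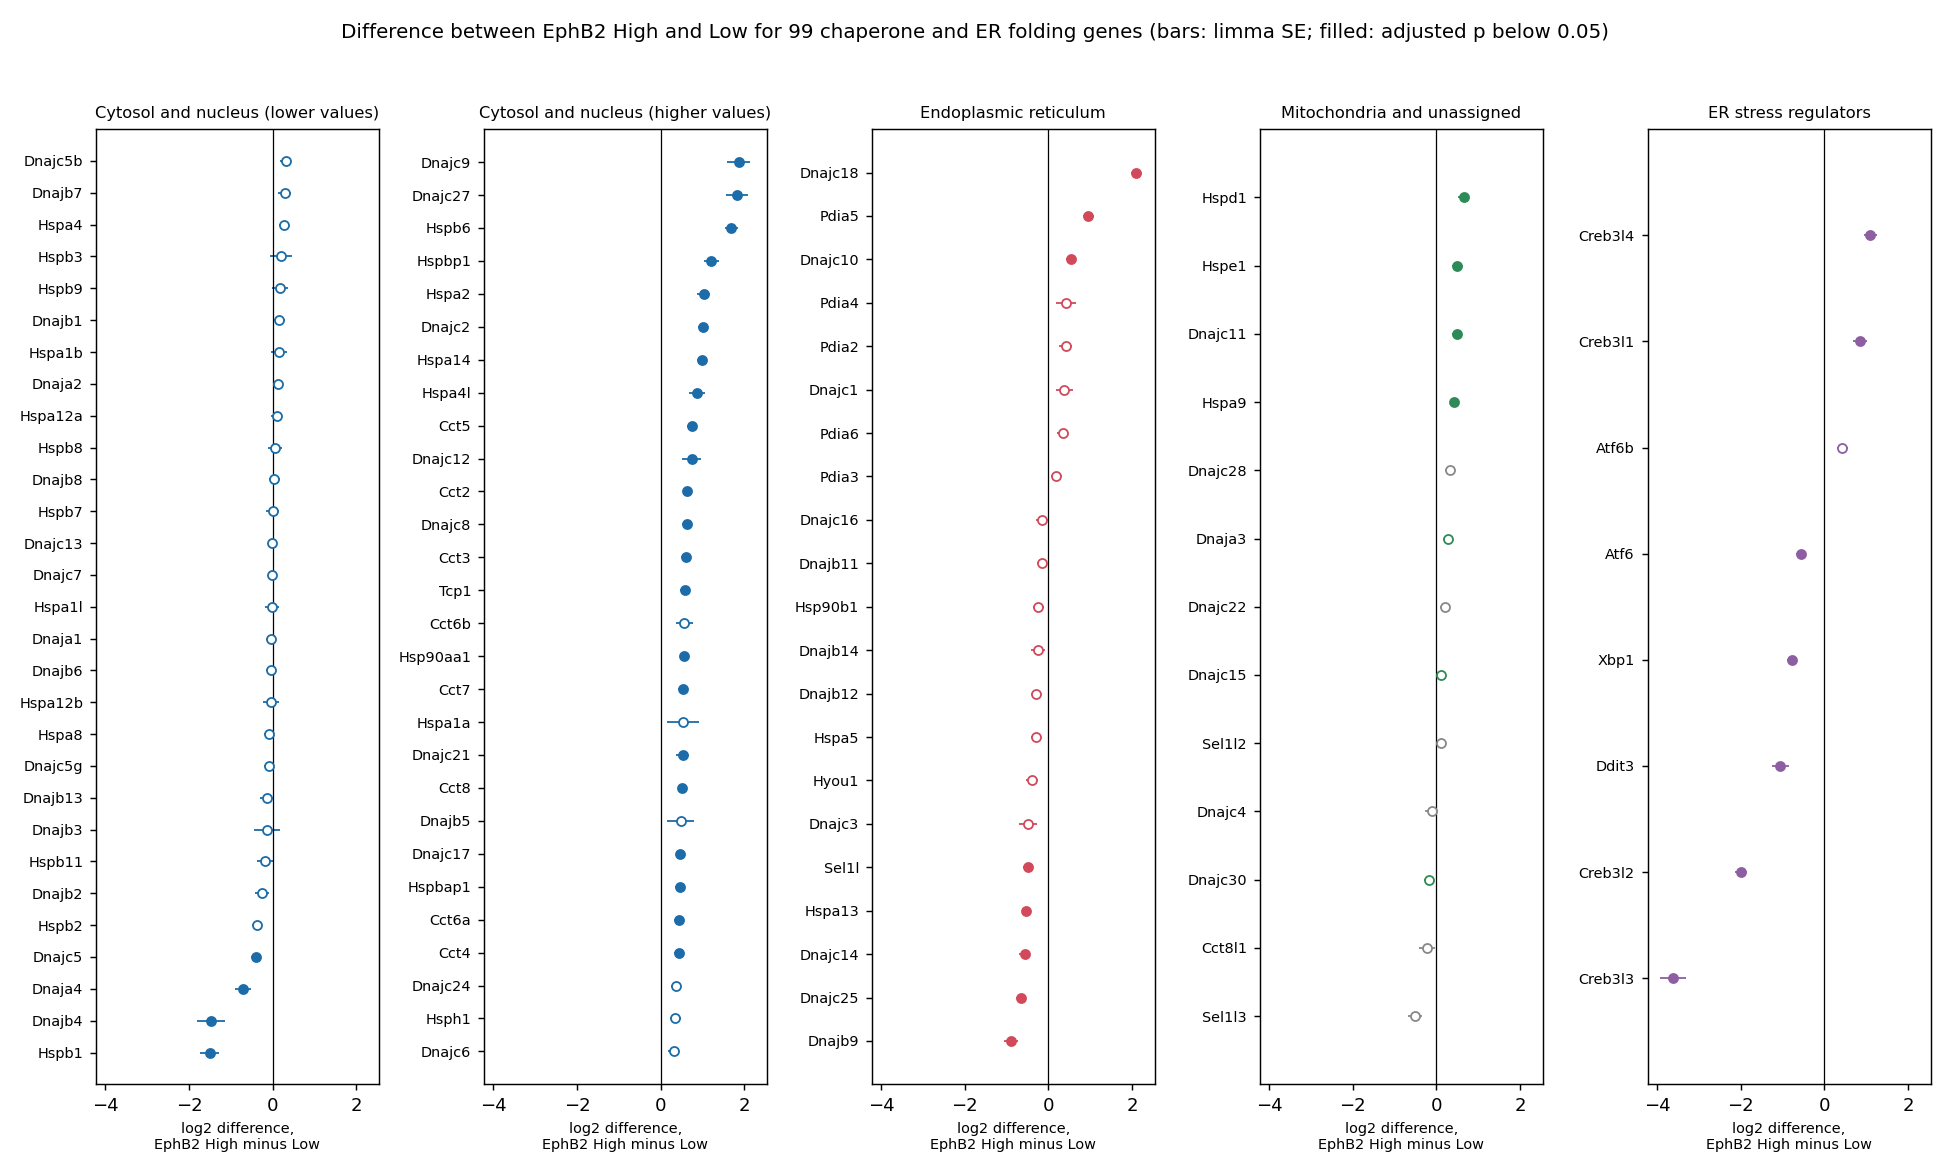
Log2 difference between EphB2 High and EphB2 Low (horizontal axis) for each of the 99 genes (vertical axis), by compartment, from 2 arrays per group; points are the fitted differences, bars 1 SE, and filled points have an adjusted p below 0.05. The cytosolic panels lean to the right with a few genes on the left, such as Hspb1 at -1.50, the mitochondrial points reach 0.65, and the stress regulators span from -3.61 (Creb3l3) to 1.10 (Creb3l4).

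The chaperonin TRiC, a double ring built of different subunits that folds actin, tubulin and other cytosolic proteins, was higher in High in 8 of its 9 measured subunits. Cct5 measured 12.94 and 12.93 in EphB2 High, 12.72 and 12.79 in Medium and 12.22 and 12.15 in Low. The High arrays were highest and the Low arrays lowest, with no overlap among the 3 groups, and the difference between High and Low was 0.75 ± 0.11 (adjusted p = 0.0036). Cct2 measured 13.61 and 13.65 in High, 13.52 and 13.52 in Medium and 13.08 and 12.89 in Low, a difference of 0.64 ± 0.12 (adjusted p = 0.00837). Tcp1, the first subunit to be named, measured 13.46 and 13.44 in High, 13.33 and 13.33 in Medium and 12.90 and 12.86 in Low, a difference of 0.57 ± 0.11 (adjusted p = 0.00822). All 8 subunits above the median of all genes (Tcp1, Cct2, Cct3, Cct4, Cct5, Cct6a, Cct7 and Cct8) were called higher, from 0.43 for Cct4 to 0.75 for Cct5. The step lay mainly between Medium and Low: there 4 subunits were called (Cct2, Cct3, Cct5 and Tcp1, from 0.45 to 0.57), and the differences between High and Medium, from 0.10 to 0.18, were not called. Cct6b, known from testis, measured 3.76 to 4.58 over the EphB2 arrays, below the median of all genes; its difference of 0.57 ± 0.20 was not called (adjusted p = 0.0769).

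The TRiC calls depended on single arrays. Without High replicate 1, 3 of the 8 calls remained (adjusted p of the lost ones 0.0554 to 0.1), and also 3 without High replicate 2 (0.0534 to 0.171). Without Low replicate 2, 4 remained (0.06 to 0.125). Cct5 and Tcp1 kept their calls without each array in turn, while Cct6a lost its call without any one of the 6. A second probe set of Cct8 differed by -0.21 and one of Cct3 by -0.02, neither called. Cct8 also lost its call with its probe sets averaged (adjusted p = 0.398).

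The other ATP-driven chaperones of the cytosol included genes that rose and genes that were not called. Hsp90aa1, the stress-inducible HSP90, measured 13.09 and 13.08 in EphB2 High, 12.94 and 12.94 in Medium and 12.52 and 12.53 in Low. The groups did not overlap, and High exceeded Low by 0.56 ± 0.10 (adjusted p = 0.00867). That call was lost without High replicate 1 (adjusted p = 0.0513) and without High replicate 2 (0.0519). Hspa8, the constitutive HSP70 of the cytosol, measured 14.01 and 13.97 in High, 14.02 and 14.11 in Medium and 14.13 and 14.03 in Low. Its difference of -0.09 ± 0.11 was not called (adjusted p = 0.585), and 3 further probe sets of the gene lay between 0.001 and 0.16.

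Hspa14 and Dnajc2 encode the HSP70 and the J protein that sit together on ribosomes and meet nascent chains, and both were higher in High. Hspa14 measured 11.45 and 11.42 in High, 11.19 and 11.31 in Medium and 10.55 and 10.35 in Low, a difference of 0.99 ± 0.12 (adjusted p = 0.0024). Dnajc2 measured 12.43 and 12.33 in High, 12.13 and 12.09 in Medium and 11.42 and 11.31 in Low, a difference of 1.02 ± 0.11 (adjusted p = 0.00167). Both fell in order from High over Medium to Low with no overlap. Hspa2, an HSP70 best known from germ cells, differed by 1.03 ± 0.14, and Hspbp1, a nucleotide exchange factor of HSP70, by 1.21 ± 0.18. These calls were kept without each array in turn. Of the 3 HSP110 genes, which also exchange nucleotides on HSP70, Hspa4l was called at 0.88 ± 0.19, but not without High replicate 1 (adjusted p = 0.0841) or Low replicate 2 (0.0565); Hsph1 (0.36) and Hspa4 (0.26) were not called by their brightest probe sets. Another probe set of Hsph1 was called higher at 1.10 (adjusted p = 0.0213) and another of Hspa4 at 0.68 (0.0306). Both genes were called when only bright genes were tested, and Hsph1 also with averaged probe sets.

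The stress-inducible HSP70 genes Hspa1a and Hspa1b are near-identical copies, so their signals may mix. Hspa1a measured 8.70 and 7.86 in EphB2 High, 8.82 and 8.38 in Medium and 8.16 and 7.32 in Low. Replicate 1 was the higher array in each group, the groups overlapped, and the difference of 0.54 ± 0.39 was not called (adjusted p = 0.338). With the hybridization as a block, the adjusted p was 0.0387. Hspa1b measured 12.62 and 12.32 in High, 12.75 and 12.62 in Medium and 12.53 and 12.10 in Low, a difference of 0.15 ± 0.19 with overlap and no call. Of 15 genes known to respond to tissue dissociation, 1 was higher and 3 were lower in High than in Low (median 0.05), and all 15 were negative for High minus Medium (median -0.21). Whether dissociation bore on the inducible chaperones was not tested.

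The cytosolic J proteins held both the greatest rises and some falls. Of 12 genes of classes A and B, none was called higher (Dnajb5 was, at 0.48, once the hybridization was a block) and 2 were lower. Dnajb4, an HSP70 partner of the HSP40 type, measured 8.31 and 8.64 in High, 8.71 and 9.37 in Medium and 9.56 and 10.36 in Low. Its Low arrays were the highest and lay far apart, and the difference was -1.48 ± 0.34 (adjusted p = 0.0177). That call was lost without High replicate 1 (adjusted p = 0.0888), High replicate 2 (0.0552) or Low replicate 2 (0.0725). Dnaja4 differed by -0.71 ± 0.19. Its call was lost with averaged probe sets and without any array but High replicate 2 or Low replicate 2. Dnaja1, Dnaja2, Dnajb1 and Dnajb6 had differences of -0.03, 0.12, 0.15 and -0.03 by their brightest probe sets and were not called. The other 2 probe sets of Dnaja1 were called lower, at -0.74 (adjusted p = 0.0065) and -0.50 (0.0298), as was the mean of its probe sets (0.0248). The signs of Dnaja1, Dnaja2 and Dnajb6 turned under another scaling or with all probe sets averaged.

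Of 14 cytosolic and nuclear J proteins of class C, 7 were higher and 1 lower. Dnajc9, which hands histones to chromatin, measured 11.21 and 11.23 in EphB2 High, 10.89 and 10.94 in Medium and 9.78 and 8.93 in Low. Its 2 Low arrays were the lowest and spread the widest, and the difference was 1.86 ± 0.27, or 3.64-fold (adjusted p = 0.00364). Dnajc27, a small GTPase with a J domain, measured 6.82 and 7.50 in High, 6.10 and 6.49 in Medium and 5.28 and 5.39 in Low, a difference of 1.83 ± 0.25 (3.55-fold, adjusted p = 0.00321). Neither gene lost its call without any single array. Another probe set of Dnajc27 had the opposite sign, at -0.15 (adjusted p = 0.458), though the call was kept with averaged probe sets. Its EphB2 values all lay below the median of all genes. Dnajc8, which associates with the spliceosome, was higher by 0.63, Dnajc12, a partner of aromatic amino acid hydroxylases, by 0.75, Dnajc21, needed for the making of ribosomes, by 0.53 and Dnajc17 by 0.48. Dnajc12 lost its call without any one of the 6 arrays and with quantile normalization (adjusted p up to 0.222). Dnajc21 lost it without either High or either Low array, with quantile normalization, with averaged probe sets (adjusted p up to 0.414) and with the hybridization as a block (0.0592). Dnajc17 lost it without High replicate 1, High replicate 2 or Low replicate 2 and with averaged probe sets (up to 0.101), and Dnajc8 without High replicate 2 (0.058). Dnajc5, the cysteine string protein of vesicle release, was lower by -0.41 ± 0.12 (adjusted p = 0.0453). Its call was lost with averaged probe sets and without 5 of the 6 arrays. Dnajc7 (-0.01 ± 0.11) and Dnajc13 (-0.01 ± 0.10) were not called.

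Small heat shock proteins hold unfolded proteins without ATP, and 2 of the 8 measured were called, in opposite directions. Hspb6 measured 8.42 and 8.51 in EphB2 High, 7.94 and 8.10 in Medium and 6.95 and 6.60 in Low, a difference of 1.69 ± 0.16 (3.23-fold, adjusted p = 0.00103). Hspb1, known as HSP27, measured 6.07 and 5.48 in High, 6.05 and 5.74 in Medium and 7.23 and 7.32 in Low, a difference of -1.50 ± 0.22 (adjusted p = 0.00404). For Hspb1 the High and Medium arrays overlapped and only Low stood apart, at levels below the median of all genes. The other 6 ranged from -0.38 (Hspb2, called with the hybridization as a block, adjusted p = 0.0372, and with quantile normalization) to 0.20 (Hspb3). Hspbap1, a partner of Hspb1, was higher by 0.47 ± 0.11, but another of its probe sets was lower by -0.40 (adjusted p = 0.0448) and the mean of its probe sets was -0.03, so its direction rests on the probe set; its call was also lost without High replicate 1 (0.0849), High replicate 2 (0.116) or Low replicate 2 (0.0862).

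Of the 7 mitochondrial genes 4 were called higher in High than in Low, and 1 of these, Hspd1, was called higher in Medium than in Low. Hspd1, the subunit of the HSP60 ring, measured 13.43 and 13.50 in EphB2 High, 13.39 and 13.56 in Medium and 12.93 and 12.70 in Low. High and Medium overlapped, Low stood below both, and High exceeded Low by 0.65 ± 0.13 (adjusted p = 0.0123) and Medium exceeded Low by 0.66 ± 0.13 (adjusted p = 0.0188). Hspe1, the HSP10 lid of that ring, measured 13.70 and 13.66 in High, 13.65 and 13.64 in Medium and 13.32 and 13.05 in Low, a difference of 0.50 ± 0.13 between High and Low (adjusted p = 0.0291). Hspa9, the HSP70 of the import motor, measured 13.47 and 13.45 in High, 13.32 and 13.44 in Medium and 13.01 and 13.05 in Low, a difference of 0.43 ± 0.11 (adjusted p = 0.0267). In both genes the Low arrays were the lowest. Dnajc11, a J protein of the cristae, differed by 0.48 ± 0.11 and was not called with averaged probe sets (adjusted p = 0.109). Dnaja3 (0.27), Dnajc15 (0.12) and Dnajc30 (-0.18) were not called. All 4 calls were lost without High replicate 1 (adjusted p 0.052 to 0.121), High replicate 2 (0.0727 to 0.112) or Low replicate 2 (0.0525 to 0.0985), although no difference changed sign.

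Hspd1 and Hspe1 lie head to head on chromosome 1, with start sites 216 bases apart on opposite strands, and the window between them holds 2 overlapping matches to the heat shock element, searched as GAA, TTC and GAA with 2 bases of any kind between them, the sequence that heat shock factors bind. The same letters were found in the promoter windows (250 bases before to 50 after a start, both strands searched) of Hsph1, Dnajb6 and Creb3l3, so in 5 of the 81 genes matched to RefSeq's promoter table (6.17%), against 0.662% of the 27025 genes of that table. The stretches of all 5 genes are shown because they carry this shared element, in RefSeq's GRCm38.p6 sequence with the matched letters in capitals; for Hspe1 and Hspd1 the capitals span both matches, and for Hsph1 the match reads on the opposite strand.
Hspe1 and Hspd1, chr1:55088053-55088082, plus strand: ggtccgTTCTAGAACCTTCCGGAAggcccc
Hsph1, chr5:149636282-149636306, minus strand: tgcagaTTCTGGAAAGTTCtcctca
Dnajb6, chr5:29735846-29735870, plus strand: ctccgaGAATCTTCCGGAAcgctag
Creb3l3, chr10:81098879-81098931, minus strand: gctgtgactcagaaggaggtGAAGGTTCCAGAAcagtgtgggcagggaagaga
Among these 5 genes, Hspd1 and Hspe1 were called higher in High, Creb3l3 was called lower, and Hsph1 and Dnajb6 were not called by their brightest probe sets. The match is a description of letters, and binding was not measured.

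**Figure D2:**
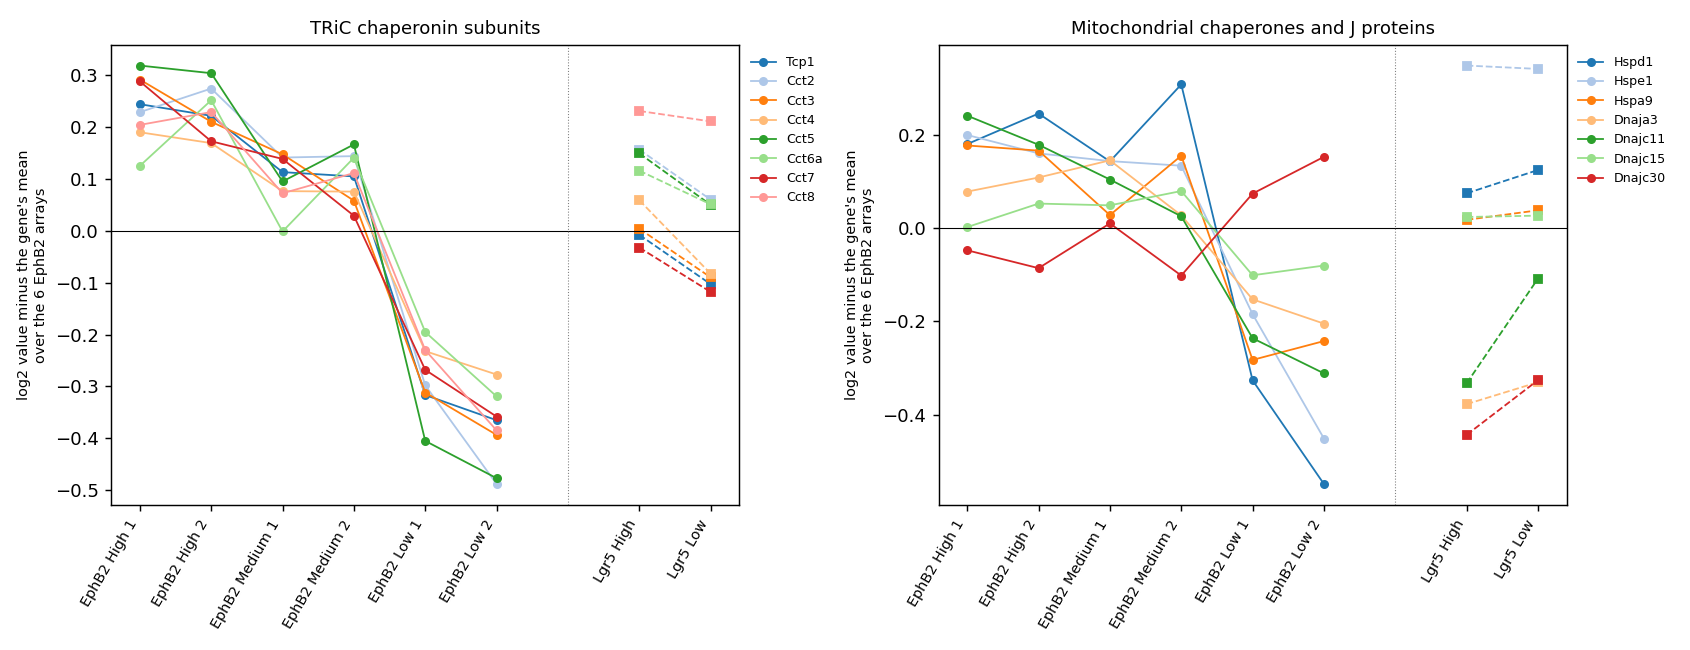
Log2 signal of each gene minus its own mean over the 6 EphB2 arrays (vertical axis) in each of the 8 arrays (horizontal axis), for the 8 bright TRiC subunits and the 7 mitochondrial genes; circles joined by lines are EphB2 arrays and squares the Lgr5 arrays, 1 point per array. All 8 TRiC lines step down between Medium and Low (Cct5 from 12.72 and 12.79 to 12.22 and 12.15), and their Lgr5 High and Low points differ by 0.02 to 0.14.

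In the ER lumen, the best known chaperones lay lower in EphB2 High but did not pass the test. Hspa5, which encodes BiP, the HSP70 of the ER and a sensor of its load, measured 13.04 and 12.89 in EphB2 High, 13.05 and 13.10 in Medium and 13.21 and 13.34 in Low. The High arrays were the lowest and the Low arrays the highest, but the difference of -0.31 ± 0.12 was not called (adjusted p = 0.0967), and 2 further probe sets gave -0.24 and -0.39. Hsp90b1, the HSP90 of the ER known as GRP94, measured 12.23 and 12.32 in High, 12.41 and 12.65 in Medium and 12.44 and 12.59 in Low, a difference of -0.24 ± 0.14 (adjusted p = 0.234). Hyou1, the exchange factor of BiP, measured 9.88 and 9.79 in High, 10.13 and 9.99 in Medium and 10.37 and 10.09 in Low. Its difference of -0.40 ± 0.14 was not called (adjusted p = 0.0747), but was with the hybridization as a block (adjusted p = 0.0393). The 2 further probe sets of Hyou1 were at -0.13 and 0.10, neither called. Hspa13, an HSP70 of the microsomal lumen, was called lower by -0.53 ± 0.11 (adjusted p = 0.0128). That call was lost with averaged probe sets, without either High array and without Low replicate 2.

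The J proteins that serve BiP went both ways. Dnajb9, known as ERdj4, measured 10.86 and 10.97 in EphB2 High, 11.18 and 11.41 in Medium and 11.65 and 11.97 in Low. It climbed from High over Medium to Low with no overlap, by -0.90 ± 0.16 for High minus Low (adjusted p = 0.00704), and kept its call without each array in turn. Dnajc10, known as ERdj5, a reductase that opens disulfides of proteins bound for degradation, measured 10.95 and 10.95 in High, 11.06 and 11.13 in Medium and 10.47 and 10.36 in Low. High exceeded Low by 0.54 ± 0.11 (adjusted p = 0.0124) and Medium was the highest group; the call was lost without High replicate 1 (0.0628), High replicate 2 (0.0687) or Low replicate 2 (0.0505). Dnajb11, known as ERdj3, differed by -0.16 ± 0.11 and was not called. Dnajc3, known as P58IPK, differed by -0.49 ± 0.21 by its brightest probe set and was not called. Of its 4 other probe sets 3 were called lower, at -0.60 (adjusted p = 0.0346), -0.44 (0.0357) and -0.72 (0.0093), and the gene was called lower with its probe sets averaged and without Low replicate 1.

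Disulfide isomerases form and rearrange disulfide bonds, and all 5 Pdia genes were above 0, with 1 called. Pdia5 measured 10.71 and 10.59 in EphB2 High, 10.28 and 10.28 in Medium and 9.81 and 9.58 in Low, a difference of 0.95 ± 0.13 (adjusted p = 0.00304) kept without each array in turn. Pdia6 measured 11.63 and 11.35 in High, 11.52 and 11.42 in Medium and 11.17 and 11.14 in Low, a difference of 0.34 ± 0.14 that was not called (adjusted p = 0.107). Pdia3, which works with the lectin chaperones on glycoproteins, differed by 0.19 ± 0.12, Pdia4 by 0.42 ± 0.24 and Pdia2 by 0.41 ± 0.16, with no call; the sign of Pdia3 turned with all its probe sets averaged (-0.01).

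Sel1l, the adaptor of the ligase complex that returns misfolded ER proteins to the cytosol for degradation, measured 11.89 and 11.98 in EphB2 High, 12.07 and 12.06 in Medium and 12.37 and 12.50 in Low. The difference was -0.50 ± 0.11 (adjusted p = 0.0179), lost without High replicate 1 (0.0963), High replicate 2 (0.0664) or Low replicate 2 (0.0699). Among the 7 J proteins of the ER membrane, Dnajc18 stood out by size: it measured 7.83 and 8.00 in High, 7.19 and 7.06 in Medium and 5.92 and 5.72 in Low. The 3 groups did not overlap, and the difference was 2.10 ± 0.14, or 4.28-fold (adjusted p = 0.000377). The other probe sets of Dnajc18 were at 2.09 (called) and 0.26 (not called). Its mean over the EphB2 arrays lay below the median of all genes. Dnajc25 (-0.66) and Dnajc14 (-0.57) were called lower. Dnajc14 lost its call with averaged probe sets, without either High array and without Low replicate 2. Its other probe sets were at -0.0016 (not called) and -0.70 (called). Dnajb12 (-0.30), Dnajb14 (-0.24), Dnajc16 (-0.16) and Dnajc1 (0.38) were not called between High and Low. Dnajb12 was called lower in Medium than in Low (-0.55). Without the 7 membrane J proteins, 5 of the remaining 14 ER genes were called.

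The ER stress response element (ERSE), CCAAT and CCACG with 9 bases of any kind between them, is the sequence through which Atf6 is known to raise the ER chaperones. It was found, on either strand, in the windows of 4 of the genes, all of them in the ER lumen: Hspa5, Hsp90b1 (2 matches), Pdia6 and Dnajc3. That is 4 of 18 ER genes with a window (22.2%), against 0.137% of all genes in the table. Dnajb11 held the related ERSE-II, ATTGG and CCACG with 1 base between them, which 0.0444% of all genes held, and Dnajc25 the element UPRE in the form TGACGTGG, which 0.714% held. The stretches are shown because these elements are known targets of the unfolded protein response, in GRCm38.p6 from RefSeq's table, with the matched letters in capitals.
Hspa5, chr2:34772005-34772063, plus strand: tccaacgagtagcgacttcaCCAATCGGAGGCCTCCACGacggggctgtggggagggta
Hsp90b1, chr10:86705618-86705676, minus strand: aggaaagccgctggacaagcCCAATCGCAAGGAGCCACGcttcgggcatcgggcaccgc
Hsp90b1, chr10:86705513-86705571, plus strand: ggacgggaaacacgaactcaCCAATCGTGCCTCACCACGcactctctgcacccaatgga
Pdia6, chr12:17266471-17266529, plus strand: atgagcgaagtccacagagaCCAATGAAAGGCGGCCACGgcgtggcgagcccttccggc
Dnajc3, chr14:118937807-118937865, plus strand: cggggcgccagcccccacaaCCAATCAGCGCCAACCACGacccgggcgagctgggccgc
Dnajb11 (ERSE-II), chr16:22857846-22857868, plus strand: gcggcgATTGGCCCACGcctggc
Dnajc25 (UPRE), chr4:59003124-59003171, plus strand: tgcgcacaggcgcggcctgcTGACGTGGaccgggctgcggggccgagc
By the brightest probe sets, tested among all genes, none of the 4 genes with an ERSE was called between EphB2 High and Low: Hspa5, Hsp90b1 and Dnajc3 were at -0.31, -0.24 and -0.49, and Pdia6 at 0.34. With only bright genes tested, Hspa5 (adjusted p = 0.0382) and Pdia6 (0.0498) were called, and Dnajc3 was called lower with its probe sets averaged or without Low replicate 1. A window without these letters says nothing about the factors. The E-box CACGTG, searched in the same way, was found in 9 of the 81 genes (11.1%, against 8.09% of all genes).

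The transcription factors of the ER stress response differed the most, and 7 of the 8 were called. Creb3l3, a liver and small intestine factor released from the ER membrane and known for its role in lipid metabolism, measured 9.28 and 8.41 in EphB2 High, 11.09 and 10.67 in Medium and 12.44 and 12.49 in Low. The 3 groups did not overlap, and the difference of -3.61 ± 0.30 between High and Low was the largest of the 99 genes in size (adjusted p = 0.000796). It was also the only one of the 99 called in each of the 3 EphB2 comparisons, at -2.03 ± 0.30 for High minus Medium (adjusted p = 0.0467) and -1.58 ± 0.30 for Medium minus Low (adjusted p = 0.0162). Creb3l2, a related factor known to expand the secretory pathway, measured 8.26 and 8.17 in High, 8.53 and 8.82 in Medium and 10.12 and 10.28 in Low, a difference of -1.99 ± 0.14 (adjusted p = 0.000531). For Creb3l2 the step lay between Medium and Low (-1.53 ± 0.14), with High minus Medium at -0.46 and not called.

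Xbp1, whose messenger RNA is spliced by Ire1 to give the active factor, measured 11.74 and 11.59 in EphB2 High, 11.98 and 12.12 in Medium and 12.41 and 12.47 in Low. It rose stepwise from High to Low with no overlap, at -0.78 ± 0.12 for High minus Low (adjusted p = 0.00479), and 3 further probe sets gave -0.74 to -0.94, all called. The probe sets do not tell the spliced from the unspliced form. Ddit3, the factor CHOP of prolonged stress, measured 11.03 and 10.50 in High, 11.48 and 11.33 in Medium and 11.94 and 11.69 in Low, a difference of -1.05 ± 0.21 (adjusted p = 0.0104; without Low replicate 1, 0.0503). Atf6, the sensor cleaved in the Golgi, measured 9.94 and 9.91 in High, 10.30 and 10.15 in Medium and 10.45 and 10.51 in Low, a difference of -0.56 ± 0.11 (adjusted p = 0.0122; 0.0571 without High replicate 1 and 0.0714 without High replicate 2). Atf6 was not called with its probe sets averaged, and its 2 other probe sets were at -0.56 (adjusted p = 0.0761) and -0.24 (0.481). The other probe set of Ddit3 was at -0.11 and not called. By their brightest probe sets, all 3 of these genes were lowest in the High arrays.

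The remaining factors ran the other way. Creb3l4 measured 9.14 and 9.27 in EphB2 High, 8.98 and 8.98 in Medium and 8.31 and 7.89 in Low, a difference of 1.10 ± 0.17 (adjusted p = 0.00408). Creb3l1, known as OASIS and linked to goblet cell maturation in the colon, measured 9.54 and 9.33 in High, 9.26 and 9.08 in Medium and 8.76 and 8.39 in Low, a difference of 0.86 ± 0.17 (adjusted p = 0.011; 0.0638 without High replicate 1). Atf6b, the paralogue of Atf6, was at 0.43 ± 0.14 and not called (adjusted p = 0.0518), but was with the hybridization as a block (0.0441). Thus the 4 Creb3l genes were divided, 2 higher and 2 lower.

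**Figure D3:**
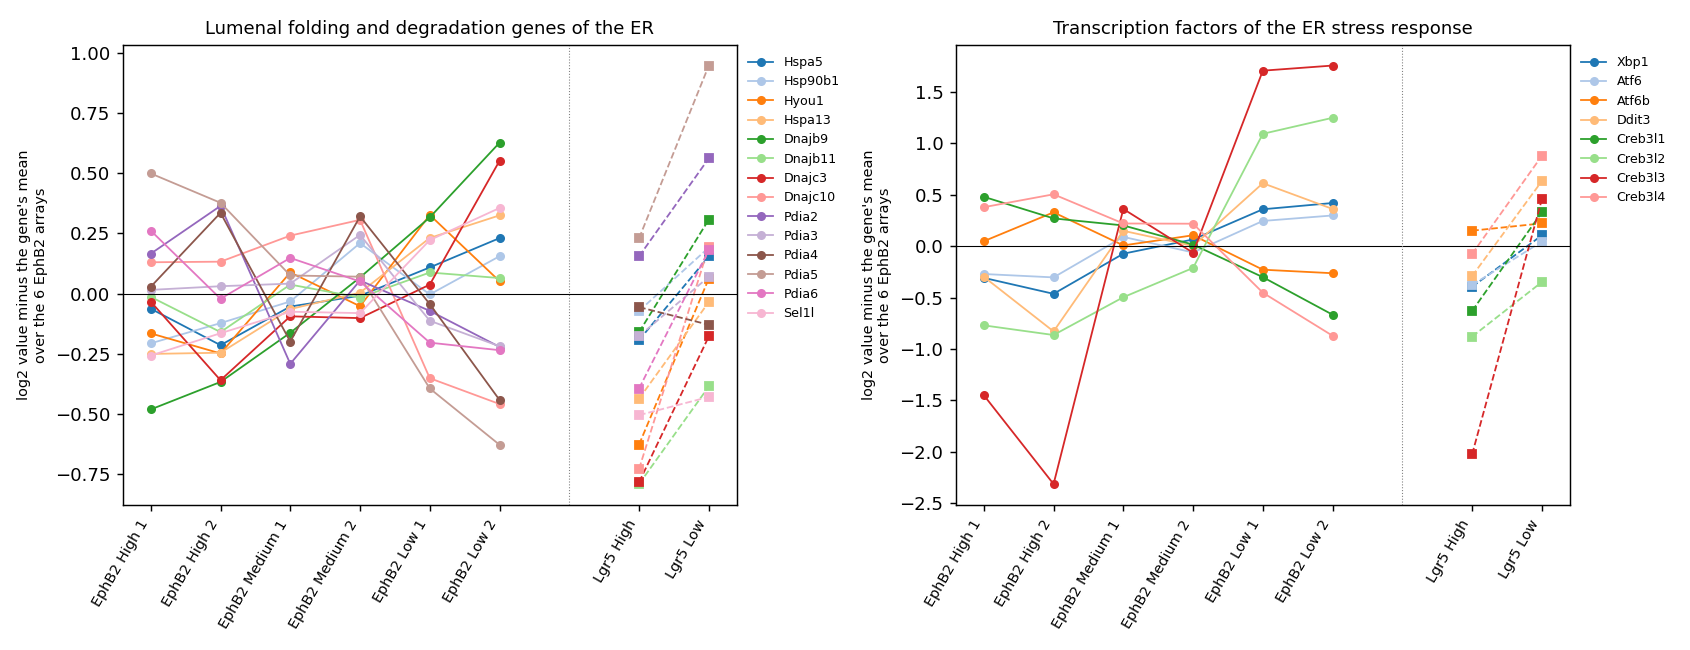
Log2 signal of each gene minus its own mean over the 6 EphB2 arrays (vertical axis) in each of the 8 arrays (horizontal axis), for 14 lumenal and degradation genes of the ER and for the 8 ER stress transcription factors; circles joined by lines are EphB2 arrays and squares the Lgr5 arrays, 1 point per array. Dnajb9 climbs and Pdia5 descends from High to Low, Creb3l3 spans the widest range (-3.61 for High minus Low), and the Lgr5 High point lies below the Lgr5 Low point for all 8 transcription factors.

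Known partners of each set were read beside the same shares of all genes, of which 22% were called higher in High and 15.3% lower (median 0.01). Of 22 cytosolic co-chaperones and heat shock factors 9 were higher in High and 1 lower (median 0.32): Bag2, an inhibitor of the ligase CHIP, rose by 2.20 ± 0.17, Stip1, which joins HSP70 to HSP90, rose by 1.07 ± 0.13, and Unc45a, a myosin chaperone, fell by 0.86 ± 0.12. Of 18 mitochondrial partners 7 were higher and 1 lower (median 0.26), among them the protease Lonp1 (0.73 ± 0.11), the mitochondrial HSP90 Trap1 (0.91 ± 0.15) and the import subunit Timm50 (0.87 ± 0.16). Of 31 ER folding and quality control genes 2 were higher and 7 lower (median -0.18). In that list Edem1, which marks misfolded glycoproteins for degradation, differed by -1.10 ± 0.12, the oxidase Ero1b by -0.87 ± 0.11, and Mogs, which trims the first glucose of N-glycans, by 1.03 ± 0.18. Of 12 sensors and effectors of the unfolded protein response 3 were higher and 5 lower (median -0.24). Trib3, a target of Ddit3, differed by -3.26 ± 0.14 and Wfs1, an ER membrane protein, by -1.95 ± 0.19, whereas Asns, asparagine synthetase, differed by 0.93 ± 0.13. The sensors Ern1 (-0.87) and Eif2ak3 (-0.61) were lower and Ern2 (0.75), the Ire1 of mucous epithelia that is also among the goblet cell genes, was higher.

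Between EphB2 High and Medium, 1 of the 99 genes was called (1.36% of all genes tested were called): Creb3l3, which was lower (1.15% of all genes were). None was called higher by limma (0.214% of all genes were, and 7 of the 99 had an unadjusted p below 0.05). The call of Creb3l3 was lost in most fits without 1 array. Fewer of all genes were called in these fits as well, and each leaves 1 array in a group. Between Medium and Low, 26 were called (24.7% of all genes), 21 of them higher in Medium (14.6% of all genes) and 5 lower (10.1%). Of these, 16 higher and 1 lower were cytosolic, 3 and 2 in the ER, 1 higher and none lower in mitochondria (4 higher and 0 lower at an unadjusted p below 0.05), and 1 and 2 among the regulators. With the hybridization as a block, 34 were called (5082 of all 18193 genes were). Leaving out any single array gave fewer calls between Medium and Low, the fewest without Medium replicate 2. The calls among all genes also became fewer, and in each such fit the share called was lower among the 99 genes than among all genes. Both comparisons share the Medium arrays, and Medium and Low also enter the comparison of High with Low. In 41 of the 45 genes called between High and Low, the Medium mean lay between the others. It did so in 69 of the 99 genes and in 63.4% of all genes, called or not. The share among all called genes was not counted, so the 41 of 45 has no like share beside it.

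Between the Lgr5 High and Low arrays there was 1 array per group, so differences have no replicate check and no test. Of the 99 genes 2 differed at least 2-fold (7.41% of all genes did), 1 higher in Lgr5 High (2.34% of all genes were) and 1 lower (5.07% were). Dnajc18 measured 7.58 in Lgr5 High and 6.55 in Lgr5 Low, a difference of 1.03. Creb3l3 measured 8.70 and 11.19, a difference of -2.48. Both had the sign seen in the EphB2 sort, in which they were also the extremes of the ER genes and of the regulators.

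All 8 regulators were lower in Lgr5 High (median -0.73), and 19 of 21 ER genes were lower (median -0.26). Of all 18193 genes, 10116 were lower, with a median of -0.05. The cytosolic genes had a median of 0.04 and the mitochondrial ones of -0.05. Hspa5 measured 12.91 in Lgr5 High and 13.26 in Low, Hyou1 9.41 and 10.10, Xbp1 11.65 and 12.15, and Ddit3 11.04 and 11.96. Over the same arrays the goblet cell genes had a median difference of -1.70, with 9 of 10 lower in Lgr5 High, and their median level was 11.39 in Lgr5 High and 13.23 in Low. The enterocyte genes had a median of -3.64, the enteroendocrine genes of -2.19, the tuft cell genes of -1.12 and the Paneth cell genes of -0.43 (8 of 9 lower). The part of these lineages in the ER differences was not tested.

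The TRiC subunits, called higher in EphB2 High, differed by 0.02 to 0.14 between the Lgr5 arrays (8 bright subunits, all above 0). Between EphB2 High and Medium the 9 measured subunits had a median of 0.12, and the mitochondrial genes one of 0.01. Lgr5 Low may not match EphB2 Low in its cells. Relative to their EphB2 means, the stem cell genes had a median of 0.35 in Lgr5 Low. In EphB2 Medium it was 0.28 and 0.34, and in EphB2 Low -0.99 and -1.72. How the groups of the 2 sorts match was not tested. Hspd1 measured 13.33 in Lgr5 High and 13.38 in Low, and Hspe1 13.85 and 13.84. Of the 45 genes called between EphB2 High and Low, 35 had the same sign between the Lgr5 arrays, where 87% of all called genes did. By set this was 23 of 26 in the cytosol, 6 of 8 in the ER, 1 of 4 in mitochondria and 5 of 7 among the regulators. The genes of opposite sign with the largest differences were Pdia5, at 10.44 in Lgr5 High and 11.16 in Low, Dnajc10, at 10.09 and 11.02, Creb3l1, at 8.43 and 9.39, and Creb3l4, at 8.69 and 9.64. Each of these 4 was higher in EphB2 High and lower in Lgr5 High. Beside them, the medians of the Paneth cell genes (0.99 in the EphB2 sort and -0.43 in the Lgr5 sort) and tuft cell genes (2.00 and -1.12) had opposite signs. So did the goblet cell genes Spdef (1.17 and -1.72), Retnlb (2.23 and -1.72) and Ern2 (0.75 and -1.69). However, 5 of the 10 goblet cell genes and 2 of the 6 tuft cell genes were lower in EphB2 High. The part of these lineages in the result was not tested.

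**Figure D4:**
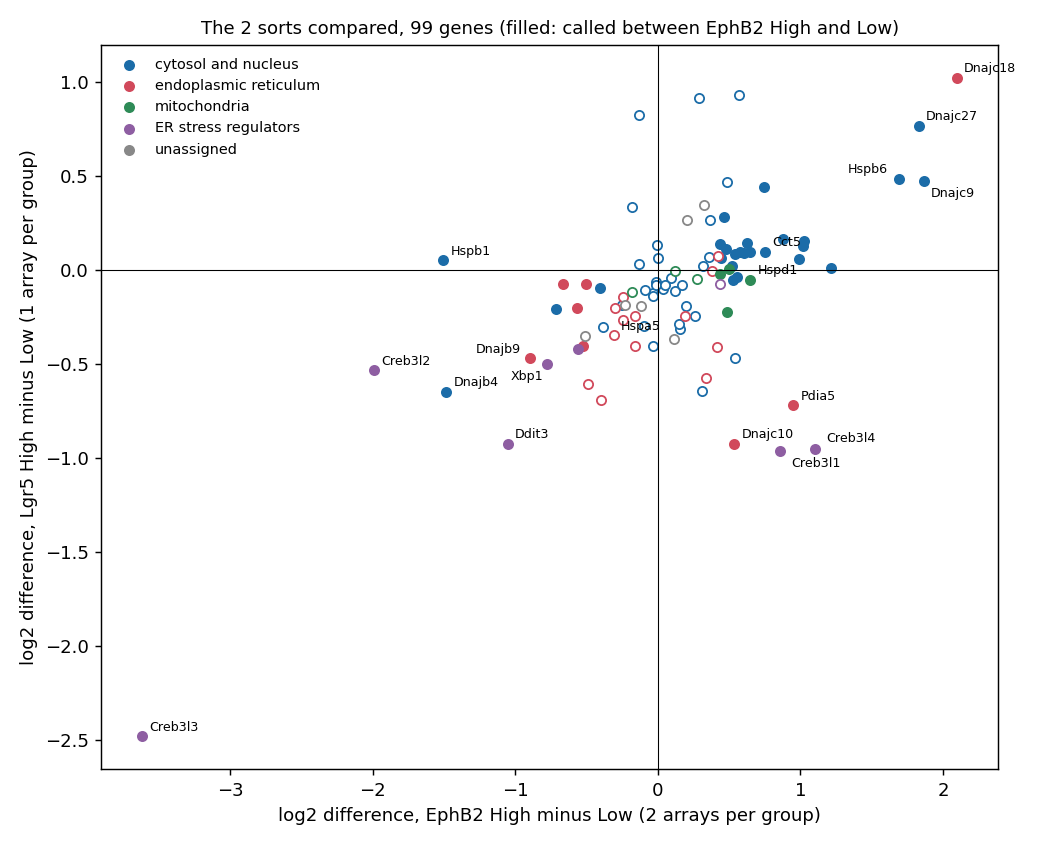
Log2 difference between EphB2 High and Low (horizontal axis, 2 arrays per group) against the log2 difference between Lgr5 High and Low (vertical axis, 1 array per group) for the 99 genes, coloured by compartment; filled points were called between EphB2 High and Low. Creb3l3 lies at the lower left (-3.61 and -2.48) and Dnajc18 at the upper right (2.10 and 1.03), while Pdia5, Dnajc10, Creb3l1 and Creb3l4 lie to the right and below 0.

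Probe sets of the same gene did not always go together. The 99 genes had 236 probe sets, and of the 137 not used above 35 had the opposite sign between EphB2 High and Low, in 23 genes. Of these 35, 6 had an unadjusted p below 0.05. Among the 45 called genes, 10 had a probe set of opposite sign: Cct3, Cct8, Dnajb4, Dnajc2, Dnajc11, Dnajc17, Dnajc21, Dnajc27, Hspa9 and Hspbap1. Hspa12a, at 0.10 ± 0.13 by its brightest probe set, had another at -1.83 ± 0.16 (adjusted p = 0.0013), so no direction can be given for it. Further probe sets were also called higher in genes whose brightest probe set was not: Dnaja3 at 0.56 (adjusted p = 0.0211), Dnajc1 at 0.96 (0.0041) and Hspb8 at 0.97 (0.0094).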

How the data were processed

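The authors deposited log2 expression values per probe set of a mouse Affymetrix array, made by RMA per the submitters' processing notes (version not given in the sources used here); that all 8 arrays were normalized together is not stated. Of 45101 probe sets, 64 were controls, 34945 named 1 gene, 932 several and 9160 none in the platform annotation. Per gene the brightest probe set over the EphB2 arrays was used. The 6 EphB2 arrays were fitted with limma 3.58.1 in R 4.3.3 (1 mean per group, empirical Bayes, Benjamini-Hochberg over 18193 genes, threshold 0.05), tested on simulated data. The labels tie replicate numbers to hybridizations, and deviations of same-numbered arrays correlated at 0.45, 0.13 and 0.21, so a fit with the replicate block is given where it changes a call. The 2 Lgr5 arrays were compared without a test, with a size rule of 2-fold. The number of arrays limits the precision. Alternatives were quantile normalization, testing only genes above the median, the mean of probe sets, and leaving out each array. Every gene chosen by symbol could be named; the members, compartments and partner and marker lists were chosen with earlier results of these data known. From the partner lists the genes with the smallest p are given, and further ones by role after their values were seen. Promoter windows are RefSeq's, found for 81 of the 99 genes. A planned count of protein C-terminal signals was not run.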

Additional observations from a re-analysis of the deposited data

Results flagged for a closer look

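For 10 genes called between EphB2 High and Low, the single Lgr5 High and Low arrays differed in the opposite direction while both hybridizations of the EphB2 sort went 1 way. The difference between the sorts was not tested, since the Lgr5 groups hold 1 array each. Lgr5 Low may also differ from EphB2 Low in its cells. The largest were Creb3l1 (0.86 between EphB2 High and Low, -0.96 between Lgr5 High and Low), Creb3l4 (1.10 and -0.95), Dnajc10 (0.54 and -0.92) and Pdia5 (0.95 and -0.72). Dnajc11 was at 0.48 and -0.22. For the other genes the Lgr5 difference was close to 0: Dnajc21 at -0.051, Hspd1 at -0.050, Hsp90aa1 at -0.038, Hspa9 at -0.020 and Hspb1, lower in EphB2 High by -1.50, at 0.052.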

How the results depend on the processing

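Counts of called genes (EphB2 High against Low) lay within 1.5 times the count of 45 with the replicate block (50, of which 44 shared), quantile normalization (44), bright genes only (49 of the 72 tested) and averaged probe sets (41). Of all 18193 genes, 7463 were called with the block, 6732 with quantile normalization and 6673 with averaged probe sets. With bright genes only, 5744 of all 9096 genes tested were called, with a median difference of 0.10. The block lost 1 call (Dnajc21) and gained 6 (Hspa1a, Dnajb5, Hspb2, Hyou1, Atf6b, Sel1l3), and changed the counts of the other comparisons by less than 1.5 times. Leaving out 1 array gave 21 to 40 in all, 12 to 22 in the cytosol, 4 to 9 in the ER, 0 to 3 in mitochondria, 5 to 7 among regulators, 0 to 1 between High and Medium and 3 to 20 between Medium and Low; these fits hold fewer arrays. Without each array in turn, fewer of all genes were called too, in each of the 3 EphB2 comparisons. With lumenal genes only, 5 ER genes were called. Genes past the fold rule in the Lgr5 sort went from 2 to 4 with quantile normalization, 15 at 1.5-fold, 1 among bright genes and 1 with averaged probe sets. Of the 45 called genes 18 (12 higher, 6 lower) kept the call in every setting that tested them.

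Uncalled differences near 0 changed sign. With quantile normalization Dnaja1 was at 0.037, Dnajb6 0.038, Dnajc13 0.066, Dnajc7 0.057 and Hspa1l 0.00373; with averaged probe sets Dnaja2 was at -0.072, Dnajb6 0.20, Hspa12a -0.54 (adjusted p = 0.0197), Hspa8 0.029, Hspb7 -0.038, Pdia3 -0.011 and the called Hspbap1 -0.028, since probe sets disagreed. Leaving out 1 array gave -0.10 to 0.042 for Dnaja1, -0.37 to 0.10 for Dnajb13, -0.59 to 0.32 for Dnajb3, -0.076 to 0.0085 for Dnajb6, -0.038 to 0.12 for Dnajb8, -0.019 to 0.0071 for Dnajc13, -0.029 to 0.0081 for Dnajc7, -0.030 to 0.22 for Hspa12a, -0.13 to 0.054 for Hspa12b, -0.065 to 0.36 for Hspa1b, -0.22 to 0.19 for Hspa1l, -0.12 to 0.12 for Hspb7, -0.081 to 0.18 for Hspb8 and -0.036 to 0.38 for Hspb9. The smallest called difference of the 99 genes was 0.41 in size, and SEs ran from 0.10 to 0.39; bright genes alone gave smaller calls, such as Dnaja3 at 0.27. Beyond array number, the cause of these changes was not tested.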
